A study of Mus musculus with 36 samples.

Results

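A set of genes expressed by macrophages and other phagocytes were followed with age in the quadriceps muscle of sarcoglycan-deficient mice. They were found by gene symbol in the probe annotation of the array. The study had picked 6 of them (*Clec7a*, *Laptm5*, *Lgals3*, *Lyz1*, *Mpeg1* and *Sirpa*) by the shape of their profiles in samples that include these, so counts of calls among the genes are a description and no independent evidence of their direction. Of the 10 genes, 9 were measured by 1 oligonucleotide each, among 8129 oligonucleotides in all, of which 6752 carry 1 gene symbol. These are *Cd68*, *Clec7a*, *Mpeg1*, *Laptm5*, *Lyz1*, *Lgals3*, *Sirpa*, *Cd14* and *Tyrobp*. No oligonucleotide carries the symbol of *Csf1r*, the receptor of the growth factor on which macrophages depend, and this gene is not analysed here. The annotation lists *Clec7a*, *Lyz1* and *Sirpa* under older symbols, which were updated by gene number.

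The animals were BSG mice, which lack beta-sarcoglycan, and GSG mice, which lack gamma-sarcoglycan. Both proteins are subunits of a complex that stabilises the membrane of muscle fibres, and mice without them are models of limb-girdle muscular dystrophies. For each strain 2 mice were taken at each of 9 ages, which were 1 and 2.5 weeks, every 2 weeks from 4 to 14 weeks, and 20 weeks. The RNA of the 36 mice was measured on 36 arrays of 2 channels. They form 4 loops of 9 arrays, 2 loops for each strain, in which each mouse shares an array with the next age and the 20 week mouse shares one with the 1 week mouse. Neither wild-type nor MDX mice are analysed here, so that change with disease and change with normal growth cannot be told apart. No array joins the strains, so a level is known only relative to 1 week in the same strain, and the loss of the targeted gene could not be checked.

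Phagocytes take up dead cells and microbes into vesicles that fuse with lysosomes. In dystrophic muscle, macrophages enter between the fibres, clear necrotic ones and release signals for regeneration and scar formation. The genes studied here act at successive steps of this process. Clec7a (dectin-1, a receptor of fungal beta-glucans), Cd14 (a co-receptor for bacterial lipopolysaccharide) and Sirpa (an inhibitory receptor that binds CD47 on other cells) lie at the cell surface. Tyrobp, also named DAP12, is the adaptor through which several activating receptors signal. Cd68 and Laptm5 are lysosomal membrane proteins, Lyz1 is a lysozyme that cuts bacterial walls, Mpeg1 (perforin-2) forms pores in engulfed bacteria, and Lgals3 is the galactoside-binding lectin galectin-3. The arrays measure whole muscle, in which more phagocytes and more RNA per phagocyte cannot be told apart.

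Promoters are shown because the genes moved together over the arrays, as described further on. RefSeq (build GRCm38.p6) holds the stretch from 250 bases before to 50 bases after the start for 6 of the genes that can be shown here. In these 300 bases both strands were searched for GAGGAA, the core bound by PU.1, the transcription factor that specifies macrophages, and for TGANTCA, the site of AP-1. No letters are shared by the 2 motifs where they were found. GAGGAA or its reverse complement was present in 3 of the 6 promoters, and in 28.3% of all 32851 promoters in the table. TGANTCA was present in 1 of the 6 and in 7.81% of all. The 3 promoters with a match follow 5′ to 3′, with the matches of both motifs in capitals.
Clec7a, chr6:129472730-129473029, minus strand: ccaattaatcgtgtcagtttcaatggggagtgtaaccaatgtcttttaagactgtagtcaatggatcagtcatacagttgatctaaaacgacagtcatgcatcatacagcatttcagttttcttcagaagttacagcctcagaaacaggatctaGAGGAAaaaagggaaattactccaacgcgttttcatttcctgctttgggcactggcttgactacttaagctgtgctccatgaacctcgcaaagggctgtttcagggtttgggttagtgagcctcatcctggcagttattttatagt
Cd68, chr11:69666121-69666420, minus strand: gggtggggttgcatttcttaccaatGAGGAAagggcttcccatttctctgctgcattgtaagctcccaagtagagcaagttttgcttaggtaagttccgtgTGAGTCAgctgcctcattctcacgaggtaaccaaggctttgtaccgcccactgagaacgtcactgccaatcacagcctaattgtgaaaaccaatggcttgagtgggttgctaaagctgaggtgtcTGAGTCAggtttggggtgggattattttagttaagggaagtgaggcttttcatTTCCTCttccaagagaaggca
Laptm5, chr4:130913066-130913365, plus strand: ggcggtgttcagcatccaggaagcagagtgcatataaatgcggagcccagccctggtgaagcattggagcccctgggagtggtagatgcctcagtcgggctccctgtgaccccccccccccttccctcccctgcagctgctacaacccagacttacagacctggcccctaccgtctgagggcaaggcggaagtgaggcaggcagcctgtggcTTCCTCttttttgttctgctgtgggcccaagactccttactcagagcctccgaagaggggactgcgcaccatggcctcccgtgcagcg

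The *Cd68* promoter had a GAGGAA match on each strand and 2 TGANTCA matches, which begin 149 and 24 bases before the start. *Clec7a* and *Laptm5* each had 1 GAGGAA match, which begins 96 bases before the start in *Clec7a* and 38 bases before it in *Laptm5*. In the promoters of *Mpeg1*, *Lyz1* and *Lgals3* neither string of letters was found. A match is a description of the letters and no evidence of binding.

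Values are log2 ratios against the 1 week mouse of the same loop, after each loop of 9 arrays was solved for its 9 mice. Fitted values are the estimate over both loops of a strain with its standard error (SE). The labels give Cy5 to the later age, except on the array shared by 1 and 20 weeks, where Cy5 is the 1 week mouse. The deposited ratios state neither the base of the logarithm nor their direction, and were read as log2 of Cy5 over Cy3. This direction is likely, since with it *Dlk1*, a gene of fetal and newborn muscle, was lower at 20 weeks than at 1 week, by a log2 ratio of -3.05 ± 0.24 (SE) in BSG and -3.54 ± 0.24 (SE) in GSG. Duplicate spots of an oligonucleotide correlated below 0.3 on 9 arrays, 4 of them from BSG loop 1, 4 from GSG loop 1 and 1 from the other GSG loop. Results without these arrays are given for the calls and for the means over the later ages that changed sign. Values of single mice and gaps between loops are given with all arrays only. In both GSG loops the array of 4 over 2.5 weeks is among the 9. Without it the GSG ages from 4 to 14 weeks are tied to 1 week only through 20 weeks. The GSG value at 20 weeks is then the mean of the 2 arrays shared with 1 week, and no separate check of them.

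All 9 genes were above 1 week in both mice of both strains at 20 weeks. Within each strain the largest fitted changes were those of *Clec7a*, *Mpeg1*, *Lyz1* and *Lgals3*, between 1.28 and 2.09 on the log2 scale, and the smallest was that of *Cd14* in GSG. After Benjamini-Hochberg adjustment over 8129 oligonucleotides (limma, threshold 0.05), 1 of 9 genes was called higher in BSG, where 0.431% of all oligonucleotides were called higher. In GSG 5 of 9 were called higher, against 0.713% of all. Of the calls, *Cd68* alone is of a gene outside the 6 that the study picked on these samples, and the shares are given for scale only. None of the 9 was called lower, against 0.849% of all oligonucleotides in BSG and 3.03% in GSG. At an unadjusted p below 0.05, 5 of 9 were higher in BSG (5.23% of all) and 7 of 9 in GSG (3.43% of all). The median log2 ratio of the 9 genes was 0.78 in BSG and 1.45 in GSG, whereas the median over all oligonucleotides was -0.02 in BSG and -0.01 in GSG.

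**Figure D1:**
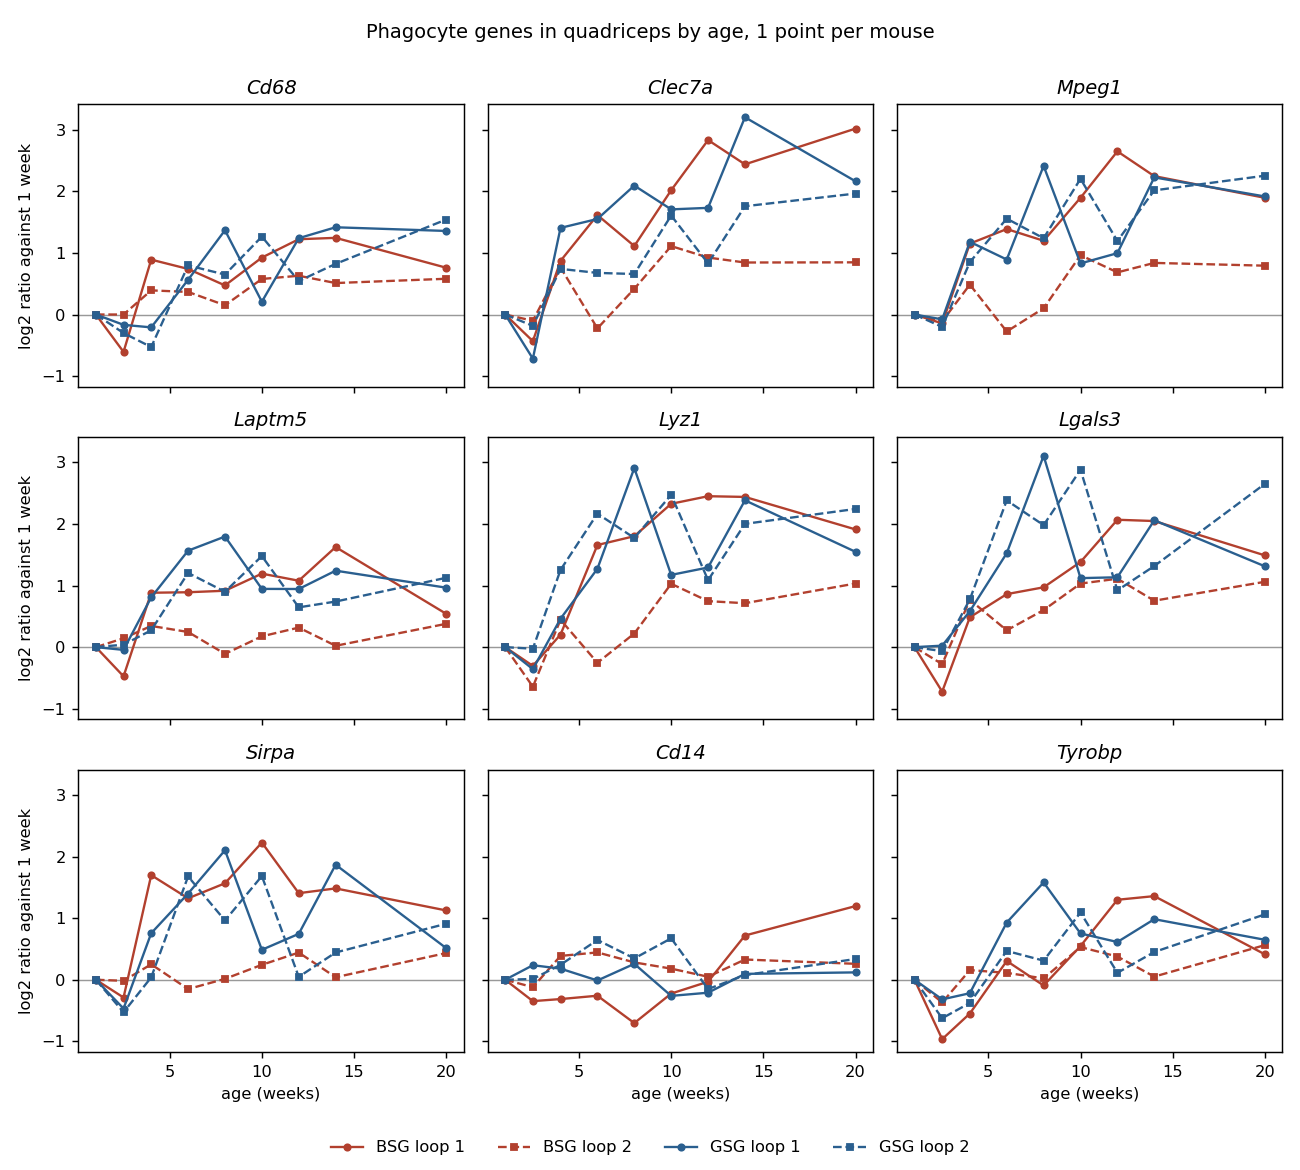
Log2 ratio against the 1 week mouse of the same loop (vertical axes) by age in weeks (horizontal axes) for 9 phagocyte genes, with 1 point per mouse. Red lines are BSG and blue lines GSG, solid for loop 1 and dashed for loop 2. Most profiles dip or stay near 0 at 2.5 weeks and lie above it from 6 weeks on, the BSG loop 2 mice lie lowest for most genes, and *Cd14* shows the smallest changes, between -0.70 and 1.20.

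Among the surface receptors, *Clec7a* was the only gene called in both strains. In BSG loop 1 it was -0.43 at 2.5 weeks, 0.87 at 4, 1.62 at 6, 1.11 at 8, 2.02 at 10, 2.83 at 12, 2.44 at 14 and 3.02 at 20 weeks. In BSG loop 2 the same ages gave -0.10, 0.76, -0.23, 0.42, 1.11, 0.93, 0.84 and 0.85. From 4 weeks on every BSG loop 1 mouse lay above the loop 2 mouse of its age. In GSG loop 1 the values were -0.72 at 2.5 weeks, 1.41 at 4, 1.55 at 6, 2.09 at 8, 1.71 at 10, 1.73 at 12, 3.20 at 14 and 2.16 at 20 weeks. In GSG loop 2 they were -0.18, 0.74, 0.68, 0.66, 1.61, 0.83, 1.76 and 1.96. The 2 GSG mice of 20 weeks differed little, and both mice of every age from 4 weeks on were above their 1 week mouse.

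The fitted change of *Clec7a* at 20 weeks was 1.93 ± 0.41 (SE, 2 mice per age) in BSG, a fold of 3.82 (limma, adjusted p = 0.0185). Without BSG loop 1 it was 0.85 and the call was lost (adjusted p = 1.00), and the call was also lost without GSG loop 1, which changes only the estimate of the spread (adjusted p = 0.0546). In GSG the change was 2.06 ± 0.41, a fold of 4.18 (adjusted p = 0.00374), and it was no longer called without GSG loop 1 (1.96, adjusted p = 0.0750) or without GSG loop 2 (2.16, adjusted p = 0.108). Without the arrays of discordant duplicate spots BSG gave 1.90 (adjusted p = 0.0723) and GSG 2.02 (adjusted p = 0.0257). At 14 weeks GSG gave 2.48 ± 0.54, a fold of 5.58 (adjusted p = 0.0370), where 0.0738% of all oligonucleotides were called higher. This was the only call of a phagocyte gene at an age before 20 weeks. It was lost without the arrays of discordant duplicate spots, with scaled arrays, with the first or the second spots alone and without moderation. The 14 week mouse of GSG loop 1 is on arrays whose duplicate spots correlated at 0.23 and 0.18. From 4 to 14 weeks the SE of each gene is larger than at 20 weeks. Each mouse is on 2 arrays, and with 1 value per animal the BSG call at 20 weeks was lost (adjusted p = 0.128) and the GSG call at that age kept (adjusted p = 0.0435). With scaled arrays the BSG call was lost too (1.38, adjusted p = 0.301).

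*Sirpa*, on chromosome 2, differed between the BSG loops. BSG loop 1 gave -0.29 at 2.5 weeks, 1.70 at 4, 1.32 at 6, 1.57 at 8, 2.23 at 10, 1.41 at 12, 1.48 at 14 and 1.13 at 20 weeks. BSG loop 2 gave -0.02, 0.25, -0.15, 0.01, 0.24, 0.44, 0.04 and 0.43 at these ages, close to the level of its 1 week mouse throughout. The GSG mice lay between 0.04 and 2.10 from 4 weeks on, highest at 8 weeks in loop 1, and at 6 and 10 weeks in loop 2, where both gave 1.68. At 12 weeks the GSG values were 0.75 and 0.05. The fitted change at 20 weeks was 0.78 ± 0.47 in BSG and 0.71 ± 0.47 in GSG, and neither passed the test (limma, adjusted p = 0.578 and 0.564).

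*Cd14* differed from the other genes in that its fitted mean over the later ages was the smallest in both strains. In BSG loop 1 it was -0.35 at 2.5 weeks, -0.31 at 4, -0.26 at 6, -0.70 at 8, -0.22 at 10 and -0.03 at 12 weeks, and then 0.72 at 14 and 1.20 at 20 weeks. In BSG loop 2 it lay between -0.12 and 0.44 at all ages, with 0.26 at 20 weeks. The GSG mice lay between -0.26 and 0.67, with 0.12 and 0.34 at 20 weeks. The fitted change at 20 weeks was 0.73 ± 0.24 in BSG (limma, adjusted p = 0.171) and 0.23 ± 0.24 in GSG (adjusted p = 0.797). Between 8 and 20 weeks *Cd14* differed by 0.94 ± 0.38 in BSG (unadjusted p = 0.0221, adjusted p = 0.999), the only one of the 9 genes with an unadjusted p below 0.05 in this contrast in BSG, where 2.50% of all oligonucleotides had one.

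*Tyrobp*, on chromosome 7, was below 1 week in all 4 mice at 2.5 weeks, with -0.96 and -0.37 in BSG and -0.32 and -0.62 in GSG. At 4 weeks 3 of the 4 mice were still below, with -0.55 and 0.16 in BSG and -0.22 and -0.38 in GSG. The highest values were 1.36 in BSG loop 1 at 14 weeks and 1.58 in GSG loop 1 at 8 weeks. At 20 weeks the mice gave 0.41 and 0.56 in BSG and 0.65 and 1.06 in GSG. The fitted changes of 0.49 ± 0.35 in BSG and 0.86 ± 0.35 in GSG did not pass the test (limma, adjusted p = 0.710 and 0.218).

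Of the lysosomal membrane proteins, *Cd68* was called in GSG. In BSG it was 0.76 in loop 1 and 0.58 in loop 2 at 20 weeks, after 1.25 and 0.51 at 14 weeks. In GSG it was below 1 week at 4 weeks in both mice, with -0.21 and -0.53. The GSG mice then gave 0.56 and 0.80 at 6 weeks, 1.37 and 0.65 at 8, 0.21 and 1.27 at 10, 1.24 and 0.54 at 12, 1.42 and 0.82 at 14, and 1.36 and 1.54 at 20 weeks. The fitted change at 20 weeks was 0.67 ± 0.37 in BSG (limma, adjusted p = 0.521) and 1.45 ± 0.37 in GSG (adjusted p = 0.0248). The GSG call of *Cd68* was lost without BSG loop 1 (adjusted p = 0.110), without BSG loop 2 (0.0872), without GSG loop 2 (0.214) and without the arrays of discordant duplicate spots (0.155). It was also lost with scaled arrays (1.15, adjusted p = 0.132), with the first spots alone (0.0846) and without moderation (0.0573).

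*Laptm5* was not called in either strain. Its duplicate spots correlated at 0.54 over the 36 arrays, the lowest of the 9 genes, and those of *Clec7a* at 0.99, the highest. Over all oligonucleotides the median was 0.32. The *Laptm5* mice of BSG loop 1 lay between 0.54 and 1.63 from 4 weeks on, and those of loop 2 between -0.11 and 0.38. The GSG mice lay between 0.27 and 1.80 from 4 weeks on, with 0.97 and 1.13 at 20 weeks. The fitted change at 20 weeks was 0.46 ± 0.36 in BSG (limma, adjusted p = 0.753) and 1.05 ± 0.36 in GSG (adjusted p = 0.118).

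The antibacterial effectors *Lyz1* and *Mpeg1* were among the genes with the largest changes. *Lyz1* in BSG loop 1 was -0.30 at 2.5 weeks, 0.20 at 4, 1.66 at 6, 1.80 at 8, 2.33 at 10, 2.45 at 12, 2.44 at 14 and 1.91 at 20 weeks. In BSG loop 2 it was -0.64, 0.45, -0.25, 0.22, 1.03, 0.75, 0.71 and 1.03 at these ages. The loop 1 mice were above 1 from 6 weeks on, and the loop 2 mice reached it first at 10 weeks. In GSG loop 1 *Lyz1* gave -0.36, 0.46, 1.27, 2.91, 1.17, 1.29, 2.38 and 1.55 from 2.5 to 20 weeks. GSG loop 2 gave -0.03, 1.25, 2.17, 1.77, 2.47, 1.09, 2.0 and 2.24. Both GSG mice of 12 weeks lay below both mice of 8 and of 14 weeks. The fitted change of *Lyz1* at 20 weeks was 1.47 ± 0.48 in BSG (limma, adjusted p = 0.161) and 1.90 ± 0.48 in GSG, a fold of 3.72 (adjusted p = 0.0250).

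Macrophages also express *Lyz2*, a near-identical neighbour of *Lyz1* on chromosome 10, and how far each oligonucleotide separates their transcripts is not known here. The array holds 1 oligonucleotide annotated to *Lyz2*. At 20 weeks it gave -0.36 and -0.16 in the BSG mice and -0.02 and -0.11 in the GSG mice. Its fitted change was -0.26 ± 0.16 in BSG and -0.06 ± 0.16 in GSG (limma, adjusted p = 0.579 and 0.950), and its log ratios correlated with those of *Lyz1* at -0.09 over 36 arrays. The 2 spots of the *Lyz2* oligonucleotide correlated at 0.49, and those of *Lyz1* at 0.85.

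*Mpeg1*, on chromosome 19, was at -0.14 and -0.11 in the BSG mice of 2.5 weeks and at 1.15 and 0.49 at 4 weeks. It then gave 1.39 and -0.28 at 6 weeks, 1.20 and 0.10 at 8, 1.90 and 0.96 at 10, 2.65 and 0.68 at 12, 2.25 and 0.84 at 14, and 1.90 and 0.79 at 20 weeks, the loop 1 mouse being the higher at each age from 4 weeks on. In GSG it was -0.08 and -0.20 at 2.5 weeks, 1.18 and 0.85 at 4, 0.89 and 1.56 at 6, 2.41 and 1.24 at 8, 0.83 and 2.20 at 10, 1.00 and 1.19 at 12, 2.23 and 2.02 at 14, and 1.92 and 2.25 at 20 weeks. The GSG mice of 14 and 20 weeks thus lay close together. The fitted change at 20 weeks was 1.34 ± 0.44 in BSG (limma, adjusted p = 0.153) and 2.09 ± 0.44 in GSG, a fold of 4.25 (adjusted p = 0.00598). The GSG call was kept in the fits without either BSG loop and without GSG loop 1, and was lost without GSG loop 2 (1.92, adjusted p = 0.0743) and with scaled arrays (1.66, adjusted p = 0.0591). It was 1.91 without the arrays of discordant duplicate spots (adjusted p = 0.0490).

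The lectin *Lgals3* had its highest values in GSG, at 8 and 10 weeks. In GSG loop 1 it was 0.02 at 2.5 weeks, 0.58 at 4, 1.53 at 6, 3.11 at 8, 1.12 at 10, 1.13 at 12, 2.06 at 14 and 1.31 at 20 weeks. In GSG loop 2 it was -0.07, 0.78, 2.38, 1.98, 2.88, 0.92, 1.32 and 2.65 at these ages. The peak at 8 weeks in loop 1 and at 10 weeks in loop 2 was followed by lower values in both mice at 12 weeks. In BSG loop 1 *Lgals3* was highest at 12 weeks (2.07) and 14 weeks (2.05), and in loop 2 at 12 weeks (1.11), with 1.49 and 1.06 at 20 weeks. The fitted change at 20 weeks was 1.28 ± 0.51 in BSG (limma, adjusted p = 0.304) and 1.98 ± 0.51 in GSG, a fold of 3.95 (adjusted p = 0.0277). The GSG calls of *Lgals3* and *Lyz1* were lost without BSG loop 1 (adjusted p = 0.125 and 0.0807), without BSG loop 2 (0.123 and 0.0669) and without GSG loop 2 (0.135 and 0.283), as well as without the arrays of discordant duplicate spots (0.101 and 0.128), and *Lgals3* in BSG was called without GSG loop 2 (adjusted p = 0.0456). Both GSG calls were also lost with scaled arrays (0.216 and 0.183) and without moderation (0.0636 and 0.0604), and that of *Lyz1* with the first spots alone (0.0846) and with 1 value per animal (0.0583).

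**Figure D2:**
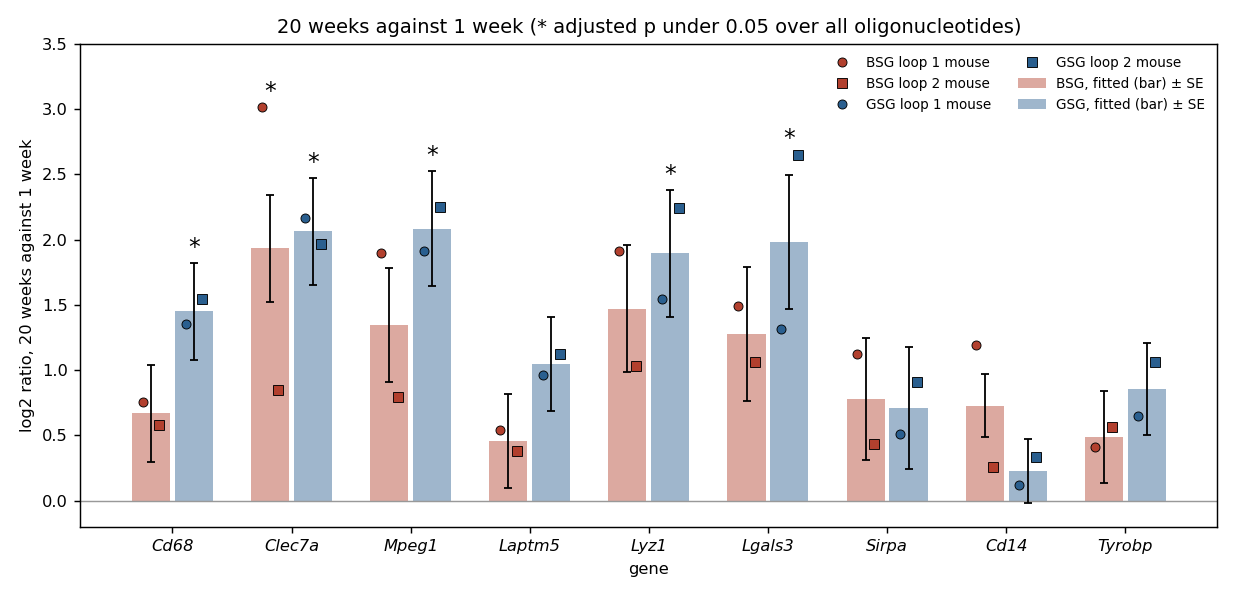
Log2 ratio of 20 weeks against 1 week (vertical axis) for each of the 9 genes (horizontal axis), BSG in red left of GSG in blue. Bars are fitted estimates with their SE, circles the loop 1 mice, squares the loop 2 mice, and stars mark an adjusted p below 0.05. All 36 points lie above 0, and the BSG mice of *Clec7a* (3.02 and 0.85) lie farthest apart.

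The contrast of 20 weeks with 1 week does not rest on the long way round the loop alone, since both mice share an array. On these 4 arrays, turned to 20 weeks over 1 week, *Clec7a* gave 2.87 and 0.81 in BSG and 2.14 and 1.89 in GSG, and *Tyrobp*, with the lowest single value apart from *Laptm5*, gave 0.18 and 0.39 in BSG and 0.39 and 0.85 in GSG. All 9 genes were positive on each of the 4 arrays. Summed over the other 8 arrays of a loop, the change was larger for most genes, as for *Cd68*. Its mean over the BSG loops was 2.18, where the shared arrays gave 0.66 and 0.30. Its mean over the GSG loops was 3.47, where the shared arrays gave 1.01 and 1.39. For *Cd14* in GSG it had the opposite sign, at -0.92, against 0.34 and 0.40 on the shared arrays. The sum of the 9 log ratios of a closed loop should be near 0. For the 9 genes it was positive in 32 of 36 cases and its median size was 1.48, against 0.943 for all oligonucleotides, and 7 genes had a positive sum in all 4 loops, against 28.0% of all oligonucleotides. The fit spreads this sum evenly over the arrays of a loop. Since each mouse of a loop is labelled once with each dye, a dye term cannot move the estimates. It takes up the part of the sum that the loops of a strain share, and so changes only the spread and the calls. The source of the sum was not tested.

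The SE of the 9 genes lay between 0.24 and 0.51 at 2.5 and at 20 weeks, the ages that share an array with 1 week. It was largest at 8 and 10 weeks, between 0.38 and 0.81. The fit has no term for the mouse, although every age has 2 mice. A change of the same size is therefore called more readily at 20 weeks than at 8 weeks. Over all oligonucleotides 104 were called at 20 weeks and 1 at 8 weeks in BSG, and 304 and 1 in GSG. In GSG *Lgals3* gave 2.54 ± 0.81 at 8 weeks and was not called, against 1.98 at 20 weeks. At 2.5 weeks 7 of 9 genes in BSG and 6 of 9 in GSG were below 1 week in both mice, and the median fitted log2 ratio of the 9 genes was -0.27 in BSG and -0.19 in GSG. At 4 weeks 7 of 9 genes in each strain were above 1 week in both mice, with medians of 0.63 in BSG and 0.54 in GSG. The median was highest at 10 weeks in BSG (1.21) and at 20 weeks in GSG (1.45), next to 1.38 at 8 weeks. At 12 weeks the GSG median was 0.89, against 1.21 at 10 weeks and 1.16 at 14 weeks. At an unadjusted p below 0.05, 3 of 9 genes differed from 1 week at 1 or more of the 7 ages up to 14 weeks in BSG (13.8% of all oligonucleotides), and 7 of 9 in GSG (19.2% of all). With adjustment, 1 gene in BSG and 5 in GSG were called at 1 or more of the 8 later ages, where 1.28% and 3.76% of all oligonucleotides were called.

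The mice of BSG loop 1 were higher than those of loop 2 for 7 to 9 of the 9 genes at each age from 6 weeks on, and the mean gap over genes was largest at 14 weeks (1.28). In BSG loop 1 the 4 arrays that link 6 to 14 weeks had duplicate spots correlated below 0.3. The gap is given with all arrays only. Each loop is set against its own single 1 week mouse, so the later ages of a loop are not independent of each other. In GSG the order of the loops changed with age. Loop 1 was higher for 8 genes at 8 weeks and 9 genes at 14 weeks, and for 1 gene at 10 weeks and 1 gene at 20 weeks. At 20 weeks the mean gap between the mice was 0.744 in BSG and 0.439 in GSG.

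Averaged over the 8 later ages, the estimates of all 9 genes were above 1 week in both strains. Without the arrays of discordant duplicate spots those of *Cd68* (-0.24), *Laptm5* (-0.16), *Sirpa* (-0.14) and *Tyrobp* (-0.53) were below 1 week in GSG, and with scaled arrays that of *Cd14* in BSG was -0.016. The estimates ranged between 0.12 for *Cd14* and 1.13 for *Clec7a* in BSG, and between 0.16 for *Cd14* and 1.48 for *Lgals3* and *Lyz1* in GSG. No gene passed the adjusted test in either strain (limma), where 0.0738% of all oligonucleotides were called in BSG and 0.652% in GSG. At an unadjusted p below 0.05 there were 2 of 9 in BSG (6.68% of all), *Clec7a* and *Mpeg1*, and 5 of 9 in GSG (8.35% of all), which were these genes with *Laptm5*, *Lyz1* and *Lgals3*. In the test of any change over the 8 ages the smallest adjusted p was 0.472 in BSG and 0.0554 in GSG, both for *Clec7a*, so 0 genes were called (limma's F test), against 0.0984% and 0.590% of all. Here 1 of 9 in BSG (4.00% of all) and 5 of 9 in GSG (7.81% of all) had an unadjusted p below 0.05. Between 8 and 20 weeks 0 of 9 genes and 0% of all oligonucleotides were called by limma in either strain, and in GSG 0 of 9 had an unadjusted p below 0.05 (1.14% of all).

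The shape of the profiles was described by the quadratic coefficient of a second order polynomial over the ages, numbered in sequence, where a negative value means a profile that bends downwards, whether it levels off or passes a maximum. It was negative for 8 of 9 genes in BSG, between -0.07 and -0.04, and positive for *Cd14* (0.02 ± 0.02). In GSG it was also negative for 8 genes, the most so for *Sirpa* (-0.10 ± 0.05) and *Lyz1* (-0.09 ± 0.05). This is the coefficient by which the study picked 6 of the genes, so their sign is not independent evidence. No coefficient passed the adjusted test (limma, 0% of all in each strain), and 0 of 9 had an unadjusted p below 0.05 (1.61% of all in BSG and 2.48% in GSG).

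The strains were compared with the temporal Hotelling T2-test on the polynomial coefficients and with the non-temporal test on all 8 ages. Neither called any of the 9 genes or any other oligonucleotide (0% of all), and 0 of 9 genes had an unadjusted p below 0.05 in either, against 4.40% of all in the temporal and 1.56% in the non-temporal test. The lowest unadjusted p was 0.307, for *Cd14*, in the temporal test and 0.225, for *Cd68*, in the non-temporal test. limma's moderated F tests of the same parameters also called 0. The mean over the later ages was lower in BSG than in GSG for all 9 genes, by differences, BSG minus GSG, between -0.61 ± 0.75 for *Lgals3* and -0.05 ± 0.35 for *Cd14*. Each was smaller than its SE (limma, 0 called, 0 of 9 with an unadjusted p below 0.05, against 0% and 3.56% of all).

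At 20 weeks, where more genes were called in GSG, the difference BSG minus GSG was tested as such after the calls had been seen. It was largest for *Cd68* at -0.78 ± 0.52, next *Mpeg1* at -0.74 ± 0.62 and *Lgals3* at -0.71 ± 0.73, and positive for *Cd14* at 0.50 ± 0.34 and *Sirpa* at 0.07 ± 0.66. *Clec7a* differed by -0.13 ± 0.58. No gene passed the test (limma, smallest adjusted p = 0.840), 0 of 9 had an unadjusted p below 0.05, and 0% of all oligonucleotides were called, 7.21% having an unadjusted p below 0.05. 

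The 9 genes moved together over the arrays. Pearson's r between 2 genes over the 36 log ratios lay between 0.35 (*Laptm5* and *Cd14*) and 0.91 (*Lyz1* and *Lgals3*), with a median of 0.73 over 36 pairs. The arrays share mice, dyes and normalization, so these correlations are a description. *Lgals3* followed the mean of the other 8 genes most closely (r = 0.95), then *Lyz1* and *Mpeg1* (both 0.92), and *Cd14* least (0.59). Within single loops of 9 arrays, *Lgals3* correlated with the mean of the others at 0.95 to 0.97 in all 4 loops, and *Cd14* at 0.42 to 0.88.

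**Figure D3:**
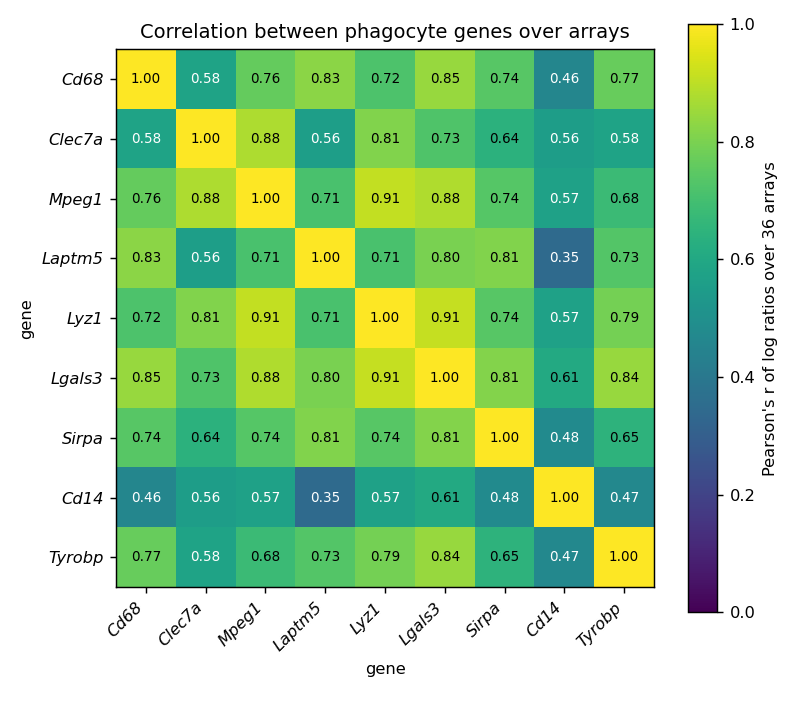
Pearson's r between the log ratios of 9 phagocyte genes over 36 arrays, with genes on both axes and colour and number giving r. *Lyz1*, *Lgals3* and *Mpeg1* form the most similar trio, with r between 0.88 and 0.91, and the row of *Cd14* is the lowest.

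Over the whole array, the 8 genes whose log ratios were most like the mean of the 9 over 36 arrays were *Clec4a2* (r = 0.95), *Adgre1* (0.93), *Blnk* (0.93), *Cd52* (0.93), *Ctss* (0.92), *C3ar1* (0.91), *Lilrb4a* (0.91) and *Itgb2* (0.89). Adgre1 is the F4/80 antigen of mouse macrophages, Ctss a lysosomal protease of antigen-presenting cells, and Itgb2 the beta chain of leukocyte integrins. Of these, *Cd52* (1.90 ± 0.35, adjusted p = 0.00190), *Itgb2* (1.41 ± 0.38, adjusted p = 0.0342), *Clec4a2* (1.49 ± 0.41, adjusted p = 0.0389) and *Ctss* (1.55 ± 0.43, adjusted p = 0.0434) were called higher at 20 weeks in GSG (limma), and none in BSG. The 8 genes were chosen for their likeness to the 9 over these same arrays, so their calls add no evidence to those of the 9. *Adgre1* gave 1.34 ± 0.40 in BSG and 0.97 ± 0.40 in GSG (limma, adjusted p = 0.109 and 0.221). *Blnk*, which is in the list of B cell and plasma cell markers used below, gave 1.33 ± 0.49 in BSG and 1.53 ± 0.49 in GSG (limma, adjusted p = 0.241 and 0.0894).

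Further genes of the pathways around the 9 were taken from lists written from general knowledge. Of 34 measured genes of other macrophage and monocyte genes (47 listed), 1 was called higher at 20 weeks in BSG and 5 in GSG, with a median log2 ratio of 0.45 in BSG and 0.42 in GSG. The BSG call was *Cd83* (1.15 ± 0.29, adjusted p = 0.0467) and the GSG calls besides *Clec4a2* and *Ctss* were *Trem2* (1.82 ± 0.39, adjusted p = 0.00671), *Alox5ap* (1.22 ± 0.32, adjusted p = 0.0306) and *Clec4d* (1.24 ± 0.34, adjusted p = 0.0408), named after their values were seen. Trem2 is a receptor that signals through Tyrobp. In BSG *Trem2* gave 0.57 ± 0.39, *Alox5ap* 0.73 ± 0.32 and *Clec4d* 0.49 ± 0.34 (limma, adjusted p = 0.664, 0.369 and 0.689). *Cd83* gave 0.61 ± 0.29 in GSG (limma, adjusted p = 0.319). Of the 34 genes, 29 were above 1 week in BSG and 27 in GSG, so that not all of the list rose. In the list of DAP12, Fc receptor and Syk signalling with the CD47 axis, 0 of 18 genes were called in either strain, with medians of 0.38 in BSG and 0.27 in GSG. *Vav1*, a signalling protein downstream of Syk that was chosen by its p, gave 0.86 ± 0.28 in BSG and 0.74 ± 0.28 in GSG (limma, adjusted p = 0.146 and 0.164).

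Of 21 genes of the CSF1 receptor axis and the myeloid transcription factors, 0 were called in either strain at 20 weeks, with medians of 0.09 in BSG and 0.05 in GSG. *Cebpb*, a transcription factor of macrophage activation chosen by its p, gave 0.66 ± 0.31 in BSG and 1.00 ± 0.31 in GSG (limma, adjusted p = 0.408 and 0.0694). Among 22 genes of Toll-like receptor signalling with the partners of CD14, 1 was called higher in BSG, the cytokine gene *Il6* (1.73 ± 0.41, adjusted p = 0.0324, against -0.11 ± 0.41 in GSG), and 1 lower in GSG, the DNA sensor *Tlr9* (-0.61 ± 0.15, adjusted p = 0.0234), with medians of 0.15 in BSG and 0.05 in GSG. Both were named after their values were seen. Of 26 genes of the phagocyte oxidase and the lysosome, 0 were called in either strain, with medians of 0.06 in BSG and 0.03 in GSG. The genes of this list chosen by their p went in different directions. *Atp6v1b2*, with the smallest p, gave -0.10 ± 0.31 in BSG and -0.41 ± 0.31 in GSG. The lysosomal *Lamp1* gave 0.33 ± 0.22 in BSG and 0.44 ± 0.22 in GSG, and *Rac2* 0.63 ± 0.23 in BSG and -0.20 ± 0.23 in GSG.

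Other cell types of the muscle were followed by marker lists in the same contrast. The pan-leukocyte genes gave 0 of 21 called in BSG and 4 of 21 called higher in GSG (*Cd52*, *Itgb2*, *Evi2a* and *Selplg*, the last named after its values were seen), with medians of 0.18 in BSG and 0.41 in GSG. For T cell markers 0 of 16 were called in either strain, with medians of 0.02 in BSG and 0.07 in GSG. For B cell and plasma cell markers 0 of 13 were called (medians 0.11 in BSG and -0.09 in GSG), for neutrophil markers 0 of 16 (0.02 in BSG and 0.09 in GSG), for dendritic cell markers 0 of 11 (0.12 in BSG and 0.03 in GSG) and for natural killer cell markers 0 of 10 (0.10 in BSG and 0.04 in GSG). Mast cell markers had 0 of 9 called in BSG and 1 of 9 called lower in GSG, the protease gene *Cma1* (-0.82 ± 0.18, limma, adjusted p = 0.00867), with medians of -0.09 in BSG and -0.27 in GSG. The arrays give no absolute level of any marker, and their part in the values of the phagocyte genes was not tested.

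Among 13 fibroblast markers, 2 were called lower in BSG, and 5 lower and 1 higher in GSG, with medians of -0.07 in BSG and -0.20 in GSG. *Col1a1*, a chain of type I collagen, was lower at 20 weeks in both strains (-1.66 ± 0.37 in BSG and -2.13 ± 0.37 in GSG, limma, adjusted p = 0.0237 and 0.000998). The gene called higher was *S100a4* (2.55 ± 0.47 in GSG, adjusted p = 0.00198), a calcium-binding protein that macrophages also express. The study had picked *S100a4*, too, by the shape of its profile in samples that include these, so its call is no independent evidence. Of 12 endothelial markers, 2 were called lower in BSG and 3 in GSG, with medians of -0.37 in BSG and -0.66 in GSG. Skeletal muscle fibre markers had 0 of 14 called in either strain and medians of 0.18 in BSG and 0.37 in GSG.

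**Figure D4:**
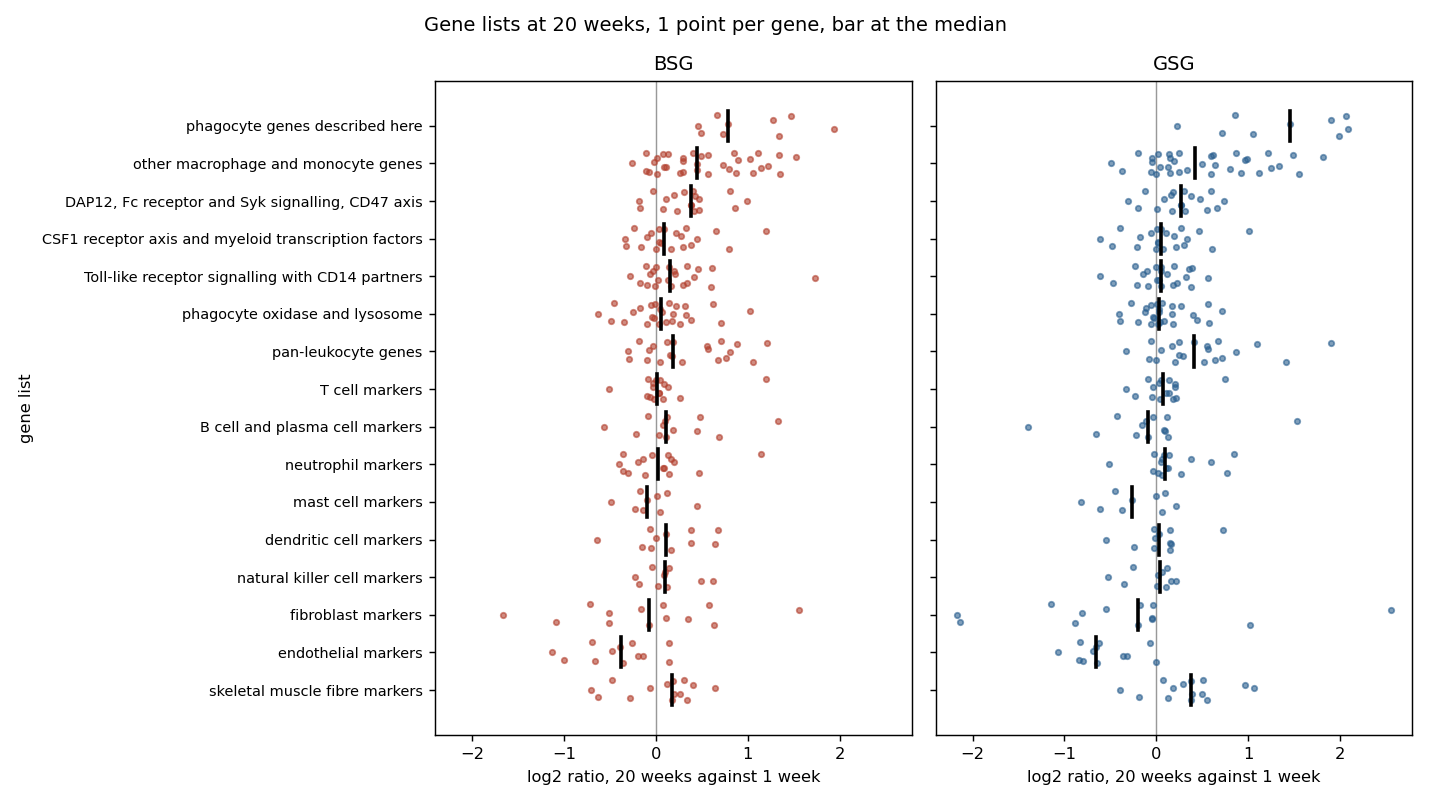
Log2 ratio of 20 weeks against 1 week (horizontal axes) for the 9 phagocyte genes and for 15 gene lists (rows), BSG in the left and GSG in the right panel, with 1 point per gene and a bar at each median. The 9 genes, 6 of them picked by the study on samples that include these, have medians of 0.78 in BSG and 1.45 in GSG, and of the lists the endothelial markers have the lowest (-0.37 in BSG and -0.66 in GSG).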

How the data were processed

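Dual-channel oligonucleotide arrays of quadriceps RNA from BSG and GSG mice were analysed. GenePix scans were normalised by the authors with smida (all.norm), which covers position on the slide, dye and differences among slides, and each deposited value is a log ratio. These deposited values were read as log2 ratios of Cy5 over Cy3, which is likely but not stated. They lie between -12.0 and 11.5, and the medians of the arrays between -0.063 and 0.037. No filter or further normalization was applied.

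The 16416 spots form 8208 pairs, and the 2 spots of a pair were averaged. The 80 pairs for *Gapdh* were merged, which gives 8129 oligonucleotides, of which 6752 have 1 gene symbol, 7 several and 1370 none. Symbols were updated by gene number to RefSeq. Where a gene has more than 1 oligonucleotide, the one with the best correlated duplicate spots was used. limma (version 3.58.1, R version 4.3.3) was fitted to all 36 arrays with 8 parameters per strain, the later ages against 1 week. The temporal (polynomial of degree 2) and non-temporal Hotelling tests were computed with the variance estimated per strain. p-values were Benjamini-Hochberg adjusted over all oligonucleotides at 0.05. The scripts were tested on simulated data. Figures were drawn with matplotlib (version 3.10.9).

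The genes, the 15 lists and the tests were chosen with earlier results of these data known. Named are all 9 measured genes, up to 3 genes per list by the smallest p of the mean of the later ages averaged over strains, and the 8 genes most correlated with the 9. Outside this rule, *Cd83*, *Trem2*, *Alox5ap*, *Clec4d*, *Il6*, *Tlr9* and *Selplg* were named after their values were seen, because they were called. The loops come from the numbering of the arrays. The labels state separate individuals, and the number of arrays limits the precision. Alternatives were each loop left out, median-centred or scaled arrays, single spots, arrays of discordant duplicate spots left out, a dye term, 1 value per animal, loops as a random block, no moderation, moderated F tests and age in weeks. Those for single genes at 20 weeks and for the strain difference at 20 weeks were chosen after seeing the data.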

Additional observations from a re-analysis of the deposited data

How the results depend on the processing

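Of 181 counts of called phagocyte genes recomputed under an alternative, 162 stayed within 1.5 times the value reported and 19 did not. Most of the 162 were counts of 0 that stayed at 0, so this share does not describe how stable the calls were. Calls over the 8 ages in BSG were 1 as reported, 0 with scaled arrays, without the arrays of discordant duplicate spots and with 1 value per animal, and 0 to 2 with a loop left out. Over all oligonucleotides these calls numbered 112 as reported and 3 to 351 with a loop left out. In GSG they were 6 as reported, 9 with 1 value per animal, 1 with scaled arrays and 3 with the first spots alone. They were 2 without the arrays of discordant duplicate spots, 2 without moderation and 1 to 4 with a loop left out. Over all oligonucleotides the GSG calls numbered 357 as reported, 504 with 1 value per animal and 200 to 410 with a loop left out. Genes called for any change in GSG were 0 as reported, 1 with a dye term and 1 with loops as a random block. They were 5 with 1 value per animal and 0 to 2 with a loop left out. Over all oligonucleotides these numbered 48 as reported, 107 with a dye term and 100 with random blocks. They numbered 82 with 1 value per animal and 16 to 239 with a loop left out. For the mean of the later ages in GSG 3 were called with 1 value per animal, against 0 as reported. Over all oligonucleotides these numbered 179, against 53 as reported. The counts of the other 10 results with 0 called stayed at 0 under each alternative run. All 9 genes stayed above 1 week at 20 weeks in both strains under each of the 13 alternatives run for that contrast. Many of these could not change a sign. Estimates are the same without a loop of the other strain, with a dye term, random blocks, 1 value per animal or no moderation. Leaving out a loop of the same strain leaves the other mouse, which was above 1 week for all 9 genes. Of the estimates of the mean of the later ages, 5 changed sign, none of them called. These were *Cd14* in BSG with scaled arrays (-0.016) and, with those arrays left out whose spots disagree, the GSG values of *Cd68* (-0.24), *Laptm5* (-0.16), *Sirpa* (-0.14) and *Tyrobp* (-0.53). In that fit no array joins 2.5 and 4 weeks in GSG, and the estimates from 4 to 14 weeks rest on the path through 20 weeks alone. The Hotelling tests were not run with 1 value per animal, random blocks or without moderation. No paired analysis was possible because the loops of the 2 strains share no animals or arrays.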
